A study of Mus musculus with 2 samples.

Results

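The Max network comprises the Myc proteins, their partner Max and the proteins that compete with Myc for it. Its 10 members studied here were *Myc*, *Mycn*, *Mycl*, *Max*, *Mxd1*, *Mxi1*, *Mxd3*, *Mxd4*, *Mnt* and *Mlx*, chosen by name, and each was measured by 1 probe set annotated to that gene alone. They were taken from 19505 genes with a name on Clariom S mouse arrays. The arrays carried total RNA from gastric organoids, epithelial cultures grown in Matrigel from the stomachs of C57BL/6 mice, aged 2 to 4 months (young) or more than 18 months (aged). Each group had 1 array, and how many mice stand behind it is not given in the sources used here. Both cultures had grown in the same medium with Wnt3a, R-Spondin1 and Chir99021, which stimulate Wnt/β-catenin signaling, with EGF, Noggin, FGF10, Y-27632 and SB431542, and with valproic acid, which also inhibits histone deacetylases. With 1 array per group no difference was tested, and age cannot be told apart from any other difference between these cultures.

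Myc proteins bind DNA only as a pair with Max, through a basic helix-loop-helix leucine zipper region, and they recognise the E-box, a short palindrome in the promoters of genes for ribosomes, metabolism and cell division. Mxd proteins (*Mxi1* encodes one of them) and Mnt also pair with Max, bind the same E-boxes, and recruit the SIN3 complex with its histone deacetylases, which represses the gene. Mlx is a relative of Max that serves the glucose-sensing proteins MondoA (gene *Mlxip*) and ChREBP (gene *Mlxipl*), and also pairs with some Mxd proteins and with Mnt. In the gut epithelium *Myc* is a classical target of Wnt/β-catenin signaling.

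Since the network reads the E-box, the promoters of its own genes were searched for it, with CACGTG as the motif, which reads the same on both strands. RefSeq promoters (build GRCm38.p6, 250 bases before to 50 after a transcript start) were at hand for all members but *Myc*. Among these 9 members, 4 (*Max*, *Mxd4*, *Mnt* and *Mlx*) held the E-box, as did *Mlxipl*, against 8.09% of the 27025 genes of the promoter table. The stretches of 30 bases around it are shown because they are the sites by which the network could bind its own genes, with the E-box in capitals. A match describes the letters only and is not evidence of binding.
Max (chr12:76962234-76962263, minus strand): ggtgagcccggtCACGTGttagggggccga
Mxd4 (chr5:34187912-34187941, minus strand): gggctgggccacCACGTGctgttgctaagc
Mnt (chr11:74830789-74830818, plus strand): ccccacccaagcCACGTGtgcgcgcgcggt
Mlx (chr11:101087238-101087267, plus strand): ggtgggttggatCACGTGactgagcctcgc
Mlxipl (chr5:135089780-135089809, plus strand): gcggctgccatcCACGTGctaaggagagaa
Counted from the transcript start, the first base of the E-box lay at −3 in *Max*, −219 in *Mxd4*, −123 in *Mnt*, −40 in *Mlx* and −98 in *Mlxipl*, the starts of *Max*, *Mnt* and *Mlx* being transcript starts inside the gene. *Mxd4* is the member with an E-box that was also lower in the aged array by the rule below, and its 250 bases before the start (chr5:34187711-34187960, minus strand) are therefore given whole, again with the E-box in capitals.
Mxd4: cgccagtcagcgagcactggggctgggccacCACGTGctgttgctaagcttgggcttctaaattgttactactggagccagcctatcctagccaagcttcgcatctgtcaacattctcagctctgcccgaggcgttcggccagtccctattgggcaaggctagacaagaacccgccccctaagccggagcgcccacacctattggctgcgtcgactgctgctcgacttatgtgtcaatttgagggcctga
The TCF motif CTTTGAT, searched on both strands as a site of the Wnt pathway, was in none of the 9 members' windows and in 4.29% of all genes.

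Signals are the authors' RMA values, taken as log2. Odorant and pheromone receptor genes, 1412 in all, which the stomach should not express, gave the background reference of each array as their 95th percentile (5.36 for young and 5.54 for aged). Genes were counted as higher or lower when they were at least 2-fold apart (1 on the log2 scale) and at least 1 array exceeded the reference. By that rule 11.3% of the 11558 genes above the reference were higher in the aged array and 11.8% were lower, 23.2% in all. Counts in the groups below are to be read beside these shares. Of the 10 members, 8 passed the filter, 3 of them (*Myc*, *Mxd1* and *Mxd4*) were lower, none was higher, and 5 were less than 2-fold apart. The share of lower genes was 37.5% of these 8, a number too small for more than a description. *Mycn* passed through the young array alone, so the filter itself favored a lower aged value for it. The receptor genes, whose differences had an SD of 0.51, give the spread at the dim end only.

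The cultures matched their label as epithelium but only in part as stomach. All 12 epithelial markers were above the reference, while the leukocyte list had 1 of 10 (*Cd4*), the endothelial list none of 8 and the fibroblast list 3 of 9 above it. Of 13 gastric markers 10 were above it on at least 1 array, with 2 higher and 4 lower in the aged array, among them the pepsinogen gene *Pgc*, at 15.88 in young organoids and under the reference in aged organoids. The higher ones were *Tff2*, a trefoil factor of gastric mucus, under the reference in young organoids and at 12.76 in aged organoids, and *Sox2*, a transcription factor of the foregut (1.21). Genes of chromosomes 6 and 12 had medians of 0.68 and 0.60 (aged minus young), while the other 18 chromosomes (the Y chromosome left out) lay between −0.10 and 0.03. *Mxd1* lies on chromosome 6 and *Max* and *Mycn* on chromosome 12. All 3 had a lower signal in the aged array, opposite in sign to the median of their chromosome. The size of a difference of their own cannot be told apart from that shift.

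*Myc*, which drives growth and entry into the cell cycle, had the largest difference of the network in the signals as deposited, while after subtraction of chromosome medians *Mxd1* (−1.98) was past *Myc* (−1.83). Its signal was 16.15 in young and 14.31 in aged organoids, a difference of −1.83, or 3.56-fold lower. In aged organoids it was still 8.77 above the reference, so both signals were clear of background. Of the 433 other genes whose mean signal lay within 1 of that of *Myc*, 13 were at least as far down. On its own chromosome, 15, the share was 4.91% of 428 genes, and the median of that chromosome was near 0. The pattern of *Myc* is 2 values, so likeness to it can only mean a similar difference at a similar brightness. Among 432 genes with 1 probe set, above the reference on both arrays and within 1 of its mean signal, the nearest differences were those of *Zfp809* (−1.83), *Txnrd1* (−1.92), *Prr13* (−1.74), *Gstt3* (−1.99) and *Lgals3bp* (−2.002).

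The other Myc genes among the members, *Mycn* and *Mycl*, were near or under background. *Mycn*, which acts mainly in the embryo and in neural tissue, was at 5.95 in young organoids and 5.11, under the reference, in aged organoids, and so at least 1.33-fold lower. *Mycl* was under the reference on both arrays (4.09 and 4.81), and no fold is given. Of these 3 genes, *Myc* alone was above the reference in aged organoids.

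*Max*, the partner that Myc needs to bind DNA, was nearly even between the arrays. It was at 11.15 in young and 10.86 in aged organoids, a difference of −0.29, and 35.5% of the 2367 other genes of similar brightness were at least as far down. Other genes of chromosome 12 were mostly higher in the aged array, and among these 408 genes only 14.5% were as low as *Max* or lower. After subtraction of the chromosome median its difference was −0.89. Set against *Max*, the difference of *Myc* was −1.54. This cancels any shift shared by all genes of an array, but brings in the shift of chromosome 12.

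**Figure D1:**
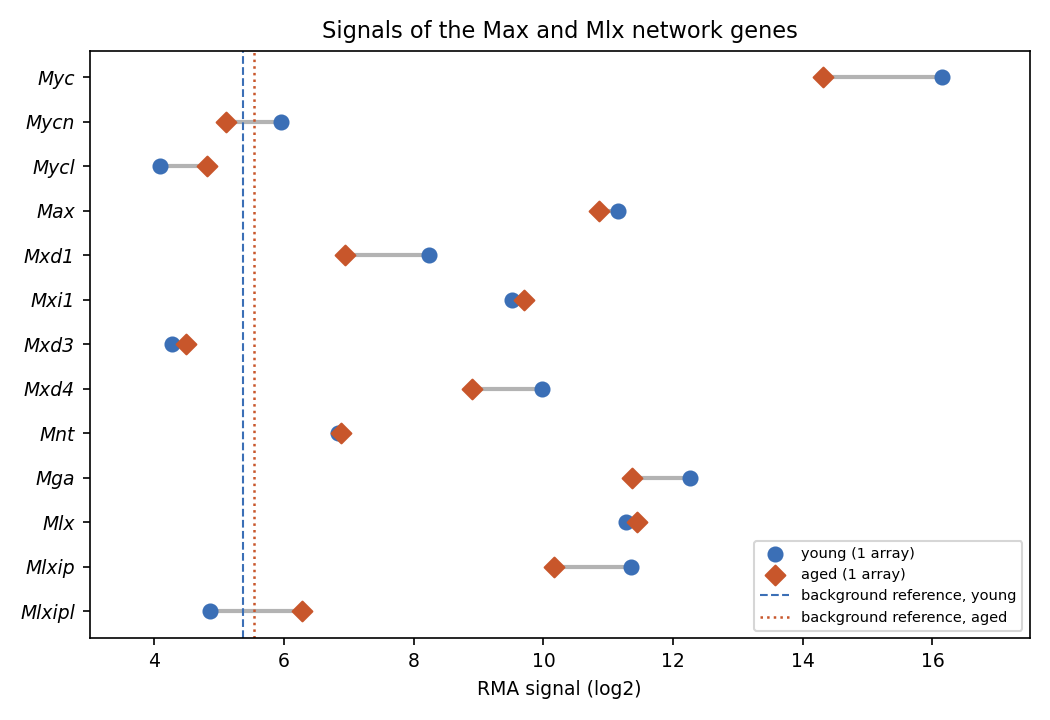
RMA signals (log2, horizontal axis) of the 10 members and of *Mga*, *Mlxip* and *Mlxipl* on the young array (circles) and the aged array (diamonds), with 1 array per group and therefore no error bars; vertical lines mark the background reference of each array. *Myc* moved from 16.15 to 14.31, *Mnt*, *Mlx* and *Mxi1* have nearly overlapping points, and *Mycl* and *Mxd3* lie under both references.

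The Mxd genes, whose products replace Myc at E-boxes when cells stop dividing and differentiate, were split. *Mxd1*, the member best known from differentiating epithelia, was at 8.23 in young and 6.94 in aged organoids, a difference of −1.29 (2.45-fold lower). It was lower although most genes of its chromosome were higher: of 551 other genes of chromosome 6, 4.36% were as low or lower, and after subtraction of the chromosome median its difference was −1.98. *Mxd4*, which is on chromosome 5, where the median was −0.01, was at 9.98 and 8.89 (−1.09, or 2.13-fold lower), only just past the 2-fold rule, and 9.62% of 2787 genes of similar brightness were at least as far down.

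*Mxi1* was less than 2-fold apart. It was at 9.51 in young and 9.71 in aged organoids, a difference of 0.20. *Mxd3*, the member that is found in dividing cells, was under the reference on both arrays (4.28 and 4.49). Of the 4 genes of the Mxd group, then, 2 were lower, 1 was less than 2-fold apart and 1 could not be judged.

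*Mnt*, a repressor present in most cells whether they divide or not, was level. Its signals were 6.82 and 6.87, a difference of 0.05, and with the arrays centred on the receptor genes the sign turned (−0.03). Relative to *Max* its difference was 0.34, against −1.004 for *Mxd1*, −0.80 for *Mxd4* and 0.49 for *Mxi1*. These values also carry the shift of chromosome 12, on which *Max* lies.

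*Mga*, which encodes a Max partner with a T-box domain as well and acts in a repressive Polycomb complex, was also lower in signal, though not by 2-fold. It was at 12.26 in young and 11.36 in aged organoids (−0.90, or 1.86-fold), and 11.8% of 1893 genes of similar brightness were at least as far down. *Mga* was not among the 10 members, nor were *Mlxip* and *Mlxipl*, which follow.

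**Figure D2:**
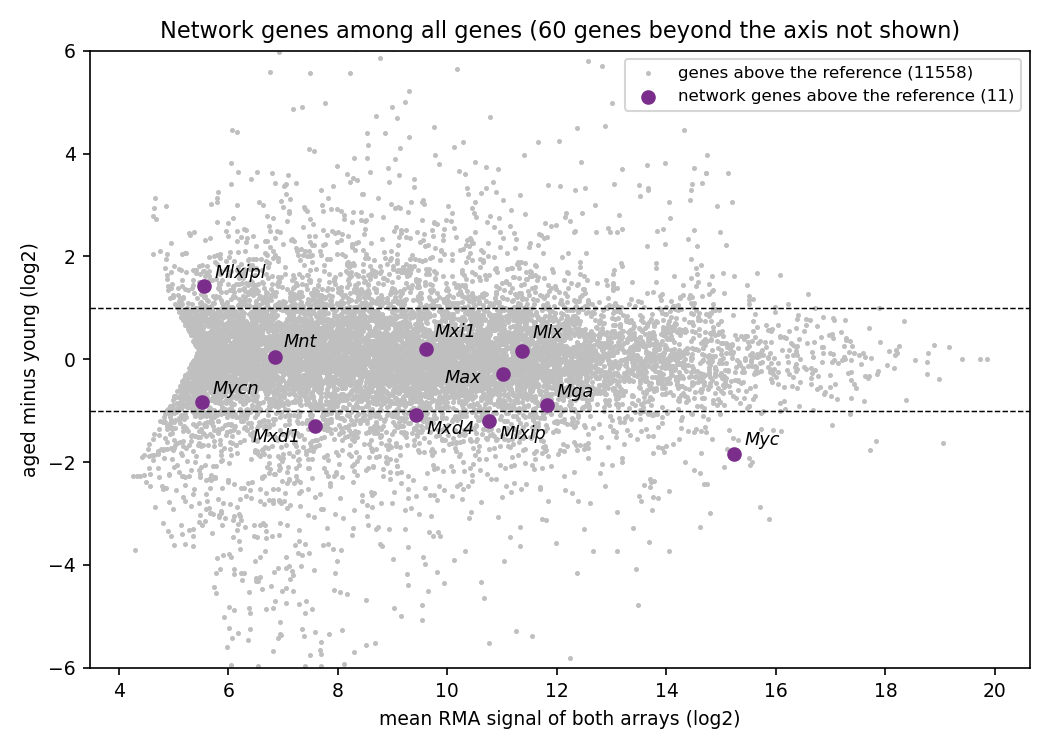
Difference (aged minus young, log2, vertical axis) against the mean RMA signal of both arrays (log2, horizontal axis) for the 11558 genes above the reference on at least 1 array (gray), with the 11 network genes among them in purple and dashed lines at 2-fold. *Myc* lies at a brightness where 13 of 433 other genes were at least as far down. *Max*, *Mlx*, *Mxi1* and *Mnt* lie in the main body of points.

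The Mlx branch couples glucose to transcription. Its hub was level, *Mlxip* was lower, and *Mlxipl* was near background. *Mlx* was at 11.28 in young and 11.45 in aged organoids (0.17), level like *Max*. *Mlxip*, the gene of MondoA, was at 11.35 and 10.16, a difference of −1.19 (2.29-fold lower), and 7.50% of 2466 genes of similar brightness were at least as far down. *Mlxipl*, the gene of ChREBP, which controls glycolysis and fat synthesis in liver and gut, was at 4.85, under the reference, in young and at 6.27 in aged organoids. That makes it at least 1.88-fold higher. Its measured difference of 1.42 counted as higher, but against the reference it fell short of 2-fold. *Mlxipl* passed the filter through the aged array alone, so the filter itself favored a higher aged value for it.

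Targets of MondoA and ChREBP were mostly less than 2-fold apart, with a few larger differences. *Txnip*, which encodes an inhibitor of glucose uptake and is induced by both proteins when glucose is plentiful, was at 13.74 in young and 16.22 in aged organoids (2.48, or 5.56-fold higher). *Klf10*, a Krüppel-like repressor, was higher by 2.69 (7.15 and 9.83), and *Pklr*, the pyruvate kinase gene of liver, by 1.01 (9.05 and 10.06). *Gpd1*, which links glycolysis to fat synthesis, was lower (7.98 and 6.54, a difference of −1.43). Of the 13 measured targets 3 (23.1%) were higher and 1 (7.69%) was lower, beside 11.3% and 11.8% of all genes, and 9 were less than 2-fold apart, with a median of 0.22, against a median of 0.00 over all genes above the reference. The genes of fatty acid metabolism *Fasn* (−0.36), *Acaca* (0.22), *Elovl6* (−0.02), *Scd1* (0.74) and *Acacb* (0.77) were each less than 2-fold apart, and were named after their values were seen.

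Mondo proteins with Mlx bind a pair of E-box-like half-sites set 5 bases apart. A search on both strands for CACGNG and CNCGNG with 5 bases between them found such an element in 0.426% of the 27025 genes, and among the 10 Mondo targets with a promoter in 2, *Txnip* and *Pklr*. Both counted as higher in the aged array, but *Pklr* only just, and after subtraction of the chromosome median its difference (0.998) fell short of 2-fold. The element of *Txnip* began at −85 from the start. It is shown within the 250 bases before the start (chr3:96557707-96557956, plus strand), and that of *Pklr*, which lay before a transcript start inside the gene, within 30 bases (chr3:89136447-89136476, plus strand), because these are the targets in which the site and the signal can be read side by side, with the element in capitals.
Txnip: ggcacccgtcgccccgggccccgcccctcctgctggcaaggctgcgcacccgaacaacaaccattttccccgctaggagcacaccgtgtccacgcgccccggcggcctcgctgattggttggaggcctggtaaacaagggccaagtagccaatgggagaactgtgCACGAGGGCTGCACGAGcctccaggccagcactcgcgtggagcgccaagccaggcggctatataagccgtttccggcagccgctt
Pklr: ggacgcCACGGGGCACTCCCGTGgttcctg
No such element was found in the promoter windows of the network's own genes. *Arrdc4*, another gene induced by glucose, and *Khk* of the same list held a plain E-box. They differed by 0.83 and −0.68, and were named for that motif.

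The factors that Myc and Mxd proteins recruit were mostly less than 2-fold apart, as were 8878 of all 11558 genes above the reference. Of 15 measured coactivators, 14 were less than 2-fold apart and 1 was higher, the acetyltransferase gene *Kat5* (9.05 and 10.36, a difference of 1.31). That is 6.67% higher and none lower, beside 11.3% and 11.8% of all genes. The scaffold gene *Trrap*, through which Myc reaches such acetyltransferases, was at 10.16 and 9.21 (−0.94). *Zbtb17*, which encodes Miz1, the partner by which Myc represses genes, was at 6.73 and 7.37 (0.65). In the SIN3 complex the corepressor genes *Sin3a* (−0.09) and *Sin3b* (−0.44) and the deacetylase genes *Hdac1* (−0.04) and *Hdac2* (0.54) stayed within 2-fold. Of its 13 measured genes, *Ing1* was higher (1.40) and *Sap30* lower (−1.02), 7.69% in each direction, beside the same shares of all genes. *Trrap*, *Zbtb17*, *Sin3a*, *Sin3b*, *Hdac1* and *Hdac2* were named for their roles after the values had been seen.

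Genes that act on the Myc protein, which is short-lived, included 3 that were higher. *Plk1*, a mitotic kinase that also phosphorylates Myc, was at 8.68 in young and 12.02 in aged organoids (3.34, or 10.1-fold higher). *Aurka*, whose product shields Myc proteins from degradation, was higher by 1.95 (5.54 and 7.49), and *Cip2a*, an inhibitor of the phosphatase that destabilizes Myc, by 1.94 (7.69 and 9.63). All 3 are also known as genes of dividing cells. The ligase gene *Fbxw7*, which marks Myc for the proteasome, was at 7.73 and 7.04 (−0.68) and was named for that role. It was 1 of 13 genes less than 2-fold apart, which ran from −0.75 (*Fbxl14*, on chromosome 6) to 0.94 (*Axin1*). After subtraction of the chromosome median, *Fbxl14* was at −1.44, past 2-fold, and 1 gene of the list then counted as lower. The 3 higher genes were among 16 measured (18.8%, beside 11.3% of all genes). In the signals as deposited none was lower, beside 11.8% of all genes, and the median was 0.29. Protein was not measured here.

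Upstream of *Myc*, factors of the Wnt pathway and others that act on its gene had a median of −0.47 over 12 genes above the reference. None was lower by 2-fold, beside 11.8% of all genes, and 2 (16.7%) were higher, beside 11.3%. With 12 genes these shares are no more than a description. *Tcf7l2*, the main TCF of gut epithelium, differed by −0.56 (12.95 and 12.39), the coactivator gene *Bcl9l* by −0.55 and the growth regulator *Yap1* by −0.80. These 3 were picked after their values were known. The genes higher by 2-fold were *Cdx2*, the intestinal homeobox gene, at 5.83 and 11.70 (5.86), and *Pygo1*, a coactivator of β-catenin (5.53 and 6.87, a difference of 1.34). *Ctnnb1*, *Tcf7* and *Foxm1* were not analysed here.

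Genes that Myc is known to activate did not share its direction. Over 105 measured genes in 6 groups, 14 (13.3%) were higher and 8 (7.62%) lower in the aged array, against 11.3% and 11.8% of all genes, with a median of 0.11. The groups differed, with medians from −0.17 (cell cycle) to 0.75 (glucose and glutamine use). Without the genes of chromosomes 6 and 12 the count was 10 higher and 6 lower of 92, and the median 0.04. These lists and that of repressed genes were written from general knowledge of Myc targets and were not checked against a published set.

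Ribosome biogenesis, the most constant output of Myc, was nearly level, with a median of 0.06 over 36 genes. Of these 3 (8.33%) were lower and 1 (2.78%) was higher, beside 11.8% and 11.3% of all genes. Lower were *Rrn3*, the initiation factor of RNA polymerase I (12.30 and 10.77, a difference of −1.53), *Noc3l* (−1.15) and *Utp20* (−1.06), which serve the assembly of the ribosomal subunits. *Polr1a*, the largest subunit of RNA polymerase I, was higher by 1.06 and lies on chromosome 6. The nucleolar genes *Ncl* (0.59), *Npm1* (−0.44) and *Fbl* (0.34), named for their roles after the values were seen, were each within 2-fold. Among 12 translation factors the median was 0.02. Higher were *Eif4ebp1* (1.47), an inhibitor of cap-dependent translation, *Eif2s2* (1.16) and *Eif3d* (1.07), which is 25% of them, beside 11.3% of all genes. None was lower, beside 11.8% of all genes.

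Targets of glucose and glutamine use had the highest median of the 6 groups, 0.75 over 12 genes. None was lower, beside 11.8% of all genes, and 4 (33.3%) were higher, beside 11.3%. They were *Tpi1* of glycolysis (1.44, on chromosome 6), *Slc7a5* (1.39) and *Slc1a5* (1.07), which carry amino acids into the cell, and *Ldha*, lactate dehydrogenase, at 15.96 and 17.22 (1.27). Without chromosomes 6 and 12 the median of this group was 0.74 over 9 genes. The *Ldha* promoter held the E-box at a pair of sites, −145 and −48 from a transcript start inside the gene.

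One-carbon and nucleotide genes were split, with a median of 0.05 over 21 genes. *Mthfd2*, the mitochondrial enzyme of the folate cycle, was at 8.71 and 11.13 (2.42, on chromosome 6), *Ahcy*, which clears the product of methylation reactions, at 10.37 and 12.64 (2.27), *Mthfd1l* higher by 1.38 and *Tyms*, thymidylate synthase, by 1.30. *Prps2*, which makes the ribose precursor of nucleotides, was lower (−1.06). *Odc1* of polyamine synthesis, a classical E-box target of Myc on chromosome 12, differed by 0.52. After subtraction of the chromosome median it was at −0.08. *Cad* of pyrimidine synthesis differed by 0.05. Neither reached 2-fold, and both were named after their values were seen. Of 13 genes for mitochondria and chaperones, *Phb2* was higher (1.26, on chromosome 6) and 12 were less than 2-fold apart, with a median of 0.01. That is 7.69% higher and none lower, beside the same shares of all genes.

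The cell cycle group held genes on both sides. *Ccnd2*, which encodes cyclin D2, was at 17.67 in young and 16.39 in aged organoids (−1.29) although it lies on chromosome 6, and *Ccne1*, the cyclin E1 gene, was at 10.70 and 9.49 (−1.21). *Id2*, an inhibitor of differentiation factors on chromosome 12, was at 12.61 and 11.38 (−1.23). *Tert*, the telomerase gene, passed only through the young array (5.74 and 4.50) and was at least 1.15-fold lower. *E2f2* was higher (6.28 and 7.67, a difference of 1.40). Thus 4 of 11 genes (36.4%) were lower and 1 (9.09%) was higher, beside 11.8% and 11.3% of all genes. Nothing is read from these shares, since the filter itself favored a lower value for *Tert*. Without chromosomes 6 and 12, 2 of 8 were lower. *Cdk4*, the kinase that D cyclins activate, differed by −0.52 and was named for that role.

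Genes that Myc is known to repress were scattered more widely than any group of activated targets. Cell cycle inhibitors stood on both sides, *Cdkn1a* (17.43 and 14.31, a difference of −3.11) and *Cdkn2b* (10.11 and 8.04, −2.07) lower, and *Cdkn1b* (6.34 and 11.07, 4.73) higher, the last on chromosome 6. The stress gene *Gadd45a*, also on chromosome 6, was higher by 2.26. *Ndrg1* and *Ndrg2*, genes of the N-myc downstream regulated family, went in opposite directions. *Ndrg1* was at 6.27 and 12.54 (6.27), and *Ndrg2* at 11.30 and 5.74 (−5.56). With the transcription factor gene *Cebpd* (−3.69), 4 of the 12 genes above the reference (33.3%) were lower and 3 (25%) were higher. Over all genes 11.8% were lower and 11.3% higher. The median of the 12 genes was −0.25. Of the 3 higher genes, 1 remained without chromosomes 6 and 12.

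**Figure D3:**
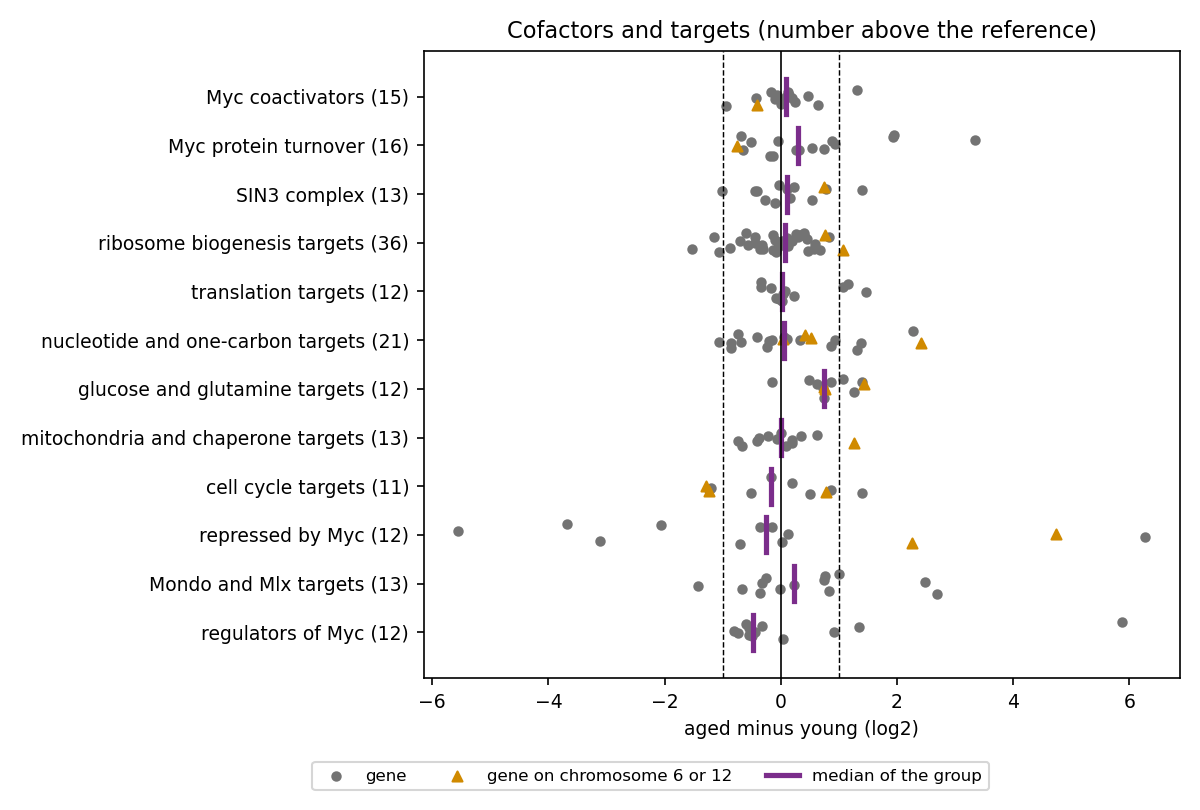
Differences (aged minus young, log2, horizontal axis) of each gene above the reference on at least 1 array in the groups of cofactors, targets and regulators (rows, with the number of genes), with genes of chromosomes 6 and 12 as triangles, purple bars at the group medians and dashed lines at 2-fold. The medians of the ribosome (0.06) and translation (0.02) groups lie near 0, that of glucose and glutamine targets at 0.75, and the genes repressed by Myc spread from −5.56 to 6.27.

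Genes with and without an E-box in the promoter had similar differences. Over all genes above the reference with a promoter entry, the 1096 with CACGTG had a median of −0.02, with 10.3% higher and 11.7% lower, and the 8328 without it a median of 0.00, with 11.8% higher and 11.3% lower. Without chromosomes 6 and 12 both medians were −0.05. The E-box was in 8.09% of all genes of the promoter table, whether above the reference or not. Above the reference it was in 1096 genes and absent from 8328. Among the activated targets, all above the reference, it was in 20 of 91 genes. These 20 had a median of −0.0036, with 2 genes higher and 2 lower, and the other 71 a median of 0.11. At the promoters of the network itself, the E-box was found in genes that were level (*Max*, *Mnt*, *Mlx*) as well as in one that was lower (*Mxd4*). *Mlxipl*, which also held it, passed the filter through the aged array alone.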

How the data were processed

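The deposited file holds log2 signals per probe set of 2 Clariom S arrays. Per the labels, the authors made them with RMA in Affymetrix Power Tools, versions not given in the sources used here. Base 2, usual for RMA, was assumed. RMA brings arrays to a like distribution, so a change in total RNA per cell cannot be seen.

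Of 22206 probe sets, 19572 with exactly 1 gene symbol in GEO's platform annotation were kept, which gave 19505 genes after averaging 55 genes with several probe sets. Chromosomes came from the probe set identifiers. The only comparison was aged minus young, without a test, since each group had 1 array. This number limits the precision. Bounds set the brighter signal against the reference of the dimmer array. Genes of similar brightness had a mean log2 signal within 1. Named genes were the network genes, up to 4 genes per list and direction among those at least 2-fold apart, and the 5 genes nearest to *Myc*; others are marked in the text. Members, lists and rules were chosen with earlier results of these data known. Promoters are RefSeq (GRCm38.p6) sequences of 300 bases. The steps were tested on simulated data, and Python 3.11.15, numpy 2.4.6, pandas 2.3.3 and matplotlib 3.10.9 were used.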

Additional observations from a re-analysis of the deposited data

How the results depend on the processing

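The differences of the 8 members above the reference were recomputed under quantile normalization, with the arrays centred on the median of all genes or of the receptor genes, with other references, and with the brightest probe set. *Myc* stayed between −1.91 and −1.80, *Mxd1* between −1.37 and −1.26 and *Mxd4* between −1.17 and −1.06. After subtraction of the chromosome median, *Max* was at −0.89, *Mxd1* at −1.98 and *Mycn* at −1.44. At 3-fold, 1 member (*Myc*) was lower. The activated targets gave 29 higher and 17 lower at 1.5-fold, and 2 higher and 0 lower at 3-fold. The other 122 recomputed values of the members and of the pooled targets moved by less than the SD of the receptor genes (0.51) or, for counts, by no more than 1.5 times, although *Mnt* turned to −0.03 with the arrays centred on the receptor genes. Leaving out chromosomes 6 and 12 was chosen after seeing the data. *Mlxipl*, with both signals raised to the higher reference, was at 0.74. Leaving out a replicate could not be done with 1 array per group. No paired analysis was possible because each group has 1 array.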
